A study of Homo sapiens with 10 samples.

Results

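The HOX genes and the genes of the core Polycomb complexes were examined as a set of 50 genes in C33A cells transfected with the ATPases of the SWI/SNF chromatin remodelling complex. The set was chosen by gene name and holds 38 HOX genes, 5 genes of Polycomb repressive complex 2 (PRC2: EZH1, EZH2, EED, SUZ12 and JARID2) and 7 genes of Polycomb repressive complex 1 (PRC1: BMI1, PCGF2, RING1, RNF2, CBX2, CBX7 and CBX8). Of the 63152 gene identifiers in the expression tables, 49 were those of members. PCGF2 had no matching identifier, and neither its expression nor its splicing was analysed here. Of the 49, 39 had a mean normalised count of at least 10 over the libraries and were tested, namely 28 HOX genes, all 5 PRC2 genes and 6 PRC1 genes.

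C33A is a line of human cervical carcinoma cells that the study used as cells deficient in SWI/SNF. The cells were transfected transiently for 48 h with the empty vector pOPRSVI (control), with pBJ5-BRG1 (BRG1-wt), pBJ5-BRG1-K798R (BRG1-mut, in which the ATPase is inactive), pCG-hBrm (BRM-wt) or pCG-hBrm-K798R (BRM-mut, also ATPase-inactive). Polyadenylated RNA was sequenced from 2 replicates of each of the 5 groups, so every group was set against the same 2 control libraries. The ATPases and the empty vector were carried by different plasmids, all libraries are of 1 cell line, and no selection of the cells that took up the plasmid is described, so that fewer expressing cells and less RNA per cell cannot be told apart. The labels do not say whether the replicates came from separate cultures, and p-values then measure only the spread between these libraries.

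The HOX genes encode homeodomain transcription factors that give segments of the body axis their identity, and they lie in 4 clusters (HOXA to HOXD) in which the order of the genes follows the order of their expression from anterior to posterior. Polycomb proteins keep HOX genes silent outside their domain: PRC2 places methyl groups on lysine 27 of histone H3, and PRC1 binds this mark and places ubiquitin on histone H2A. SWI/SNF remodelling ATPases were first linked to Trithorax group genes, which act against Polycomb repression of the HOX clusters. The comparisons ask whether the transcripts of these genes differed when an active or an inactive BRG1 or BRM was added to the cells.

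The depth was 30754459 to 43396908 reads on genes per library. Which of both libraries of a group is replicate 1 cannot be told from the expression tables, so the library with more reads in each group is called a and the other b. The transfected genes followed the labels. SMARCA4, which encodes BRG1, had normalised counts (reads divided by the size factor of the library) between 1653 and 6725 in the 6 libraries without BRG1 plasmid and between 47389 and 61027 in the 4 BRG1 libraries. SMARCA2, which encodes BRM, had between 3.31 and 13.6 without and between 53794 and 192284 with BRM plasmid. The summed level of the 5 epithelial markers (KRT8, KRT18, KRT19, EPCAM and CDH1) was on average 323 in control and 2018 in BRG1-wt. It was 568 in BRG1-mut, 1722 in BRM-wt and 433 in BRM-mut. Most of the sum was KRT8 and KRT18, with means of 366 and 612 over the libraries, against 27.5 for EPCAM and 6.49 for CDH1. EPCAM did not follow the sum, with 22.3 and 28.0 in control and 25.9 and 18.6 in BRG1-wt. CDH1 had 2.91 and 2.07 in control and 11.6 and 8.26 in BRG1-wt, and KRT19 did not exceed 4.92 in any library. The marker sums of other cell types had ranges over the libraries of 3235 to 7663 for fibroblast, 1161 to 2054 for leukocyte and 0 to 8.91 for the endothelial gene CDH5, with CD3E at 0 throughout. The part of these markers in the values below was not tested.

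The libraries also differed in how the level of a gene moved with the GC content of its exons, and this touches the members because many of them lie away from the middle of all genes in GC content. Over 11737 genes with a mean normalised count of at least 100, the Spearman rho of the deviation from the mean level and the exon GC content was 0.51 in control a and -0.70 in control b, 0.13 and 0.66 in BRG1-wt a and b, 0.80 and 0.73 in BRG1-mut, -0.79 and 0.80 in BRM-wt, and -0.18 and -0.82 in BRM-mut. The median exon GC content was 54.8% for the tested HOX genes, 58.1% for PRC1 and 40.4% for PRC2, against 47.3% for all tested genes. Differences between groups are therefore given as fitted and again after the trend with GC content was subtracted from each library, an alternative chosen after seeing the data.

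The HOX genes were active unevenly in C33A cells. HOXC held the highest summed level, with 1259 normalised counts per kb of exons on average (range over the 10 libraries 1154 to 1569), followed by HOXB with 687 (556 to 878), HOXD with 244 (206 to 267) and HOXA with 223 (179 to 261). The ranges of HOXC, HOXB and the other two clusters did not overlap, and those of HOXD and HOXA did. HOXC thus gave 52.2% of the summed HOX level per kb, HOXB 28.5%, HOXD 10.1% and HOXA 9.25%. In the control libraries alone the means were 1207 for HOXC, 610 for HOXB, 221 for HOXD and 220 for HOXA.

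**Figure D1:**
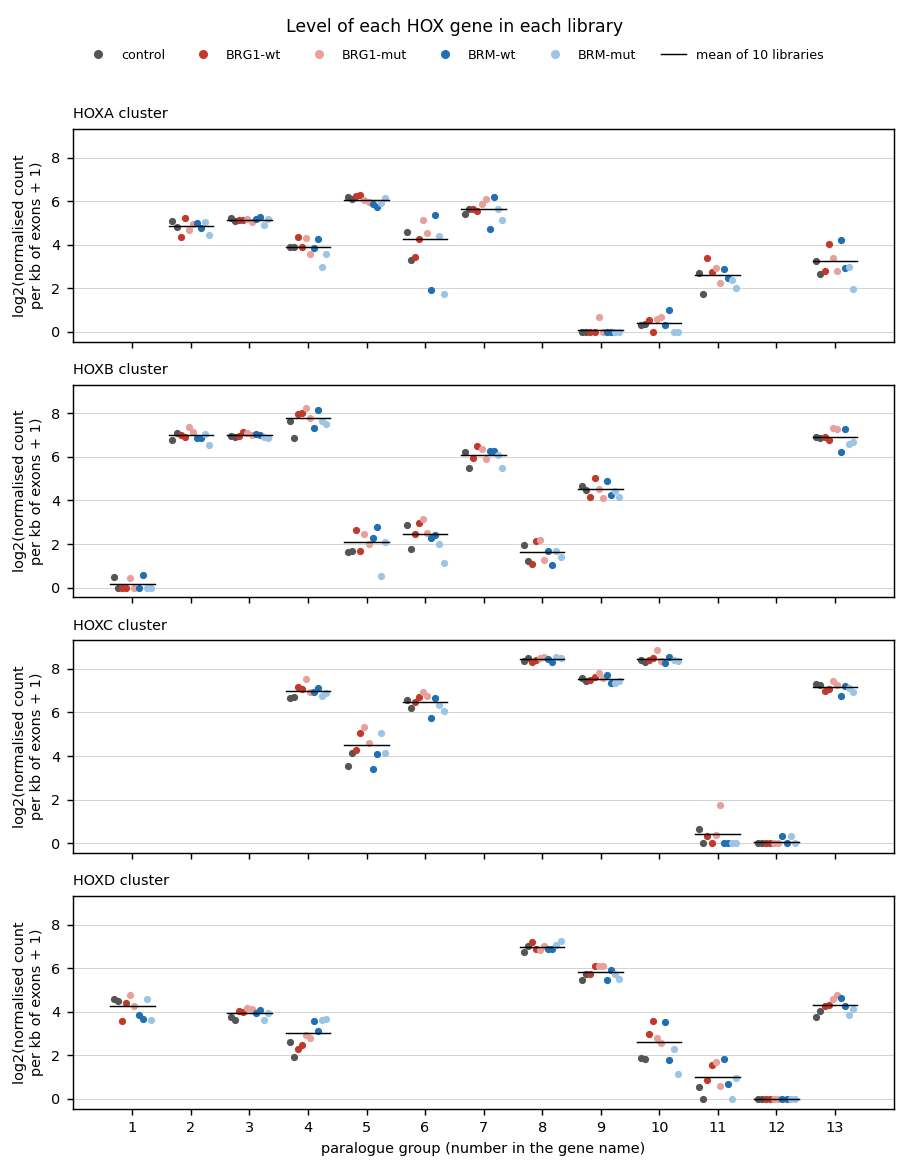
Level of each HOX gene in each library as log2(normalised count per kb of exons + 1), by cluster and by paralogue group, the number in the gene name. Dots are the 10 libraries coloured by group and bars are their means. HOXC10 had a mean of 348 per kb and its neighbour HOXC11 a mean of 0.35, and the 5 groups lie together at the active genes.

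Within HOXC, the genes HOXC10, HOXC8, HOXC9, HOXC13, HOXC4 and HOXC6 were all active, and HOXC11 and HOXC12 between HOXC10 and HOXC13 were close to silent. HOXC10, a gene of lumbar and hindlimb patterning (ENSG00000180818, chromosome 12 of GRCh37 from 54378849 to 54384063), had a mean level of 348 per kb (304 to 464), and HOXC8, a thoracic gene, had 346 (313 to 368). The levels of these 2 overlapped and lay above HOXC9 (186), which does not overlap with either. HOXC13, needed for hair and nail formation, had 141 per kb, HOXC4 had 127, HOXC6 had 88.3 and HOXC5 had 21.6. HOXC11 had 0 to 7 reads per library and HOXC12 had 0 or 1.

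In the HOXB cluster, HOXB4, a gene known from blood stem cells (ENSG00000182742, chromosome 17 from 46652869 to 46655712), was the most active with 216 normalised counts per kb (115 to 298). HOXB3 (126), HOXB2 (125) and HOXB13 (120), the last known from the prostate, had levels per kb whose ranges overlapped with each other and with that of HOXB4. HOXB7 had 67.1 and HOXB9 had 21.7 per kb. HOXB6 (4.46), HOXB5 (3.28) and HOXB8 (2.06) were low between active neighbours, and the hindbrain gene HOXB1 had 0 or 1 read per library.

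The HOXA cluster was low in these cells. HOXA5, which acts in lung and skeletal development (ENSG00000106004, chromosome 7 from 27180671 to 27183300), was its most active gene with 65.5 per kb (52.2 to 76.9), followed by HOXA7 (49.3), HOXA3 (34.2), HOXA2 (28.1), HOXA6 (18.2) and HOXA4 (14.1). The range of HOXA7 (25.6 to 72.9) overlapped with that of HOXA5. HOXA13 (8.46) and HOXA11 (5.15), which pattern the limb and the reproductive tract, were lower. HOXA9, a gene of blood progenitors, had at most 2 reads in any library and HOXA10 had at most 3.

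In the HOXD cluster, HOXD8 (ENSG00000175879, chromosome 2 from 176994422 to 176997423) had 125 normalised counts per kb (107 to 148) and HOXD9 had 55.0 (42.6 to 67.9), so that their ranges did not overlap. HOXD13, which patterns the digits, had 18.5, HOXD1 had 17.9 and HOXD3 had 14.3 per kb. HOXD4 (7.02), HOXD10 (5.16) and HOXD11 (1.01) were low. HOXD12 had 0 reads in all 10 libraries, which allows up to 3 counts per library from counting error alone. Reads were counted with duplicates included, so that such limits cover counting error only.

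In all, 28 of the 38 HOX genes reached a mean normalised count of 10. The other 10 (HOXA9, HOXA10, HOXB1, HOXB5, HOXB8, HOXC11, HOXC12, HOXD4, HOXD11 and HOXD12) lay below it in the mean of all libraries, and none was tested. Of the 49 members, 27 share exon bases with another annotated gene, 17 on the same strand and 21 on the opposite strand, and 24 of the 27 are HOX genes. Examples are HOXC4 with HOXC6, HOXB3 with HOXB4 and HOXB6, HOXA7 with HOXA-AS3, and BMI1 with COMMD3-BMI1. The strand setting of the counting is not given in the sources used here, so reads of a gene and an antisense partner cannot be told apart, and the levels of these members are uncertain to that extent.

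The region before the start of the most active and of the silent HOXD gene is shown because CpG-rich starts are the kind of sequence on which Polycomb acts. The RefSeq promoters of GRCh38.p14 held 20 of the 38 HOX genes, and the CG dinucleotide was counted on 1 strand, since its reverse complement is the same, in the 250 bases before the start. The median was 20.5 CG for the 20 HOX genes against 11 over 27303 promoters of that length. It was 22 for the 14 tested HOX genes (8 to 40) and 17.5 for the 6 below the limit (4 to 23), which overlap. For the 10 Polycomb genes with such a promoter it was 34 (1 to 41). These included PCGF2, with 1 CG, and lacked CBX2 and CBX8. The letters TATAAA on either strand were in 4 of the 20 HOX promoters (20%) and in 11.1% of all. Both sequences run 5′ to 3′ on the plus strand, with each CG in capitals, from chr2:176129455-176129704 for HOXD8 (28 CG, 72.4% GC) and from chr2:176099545-176099794 for HOXD12 (16 CG, 53.2% GC).
HOXD8: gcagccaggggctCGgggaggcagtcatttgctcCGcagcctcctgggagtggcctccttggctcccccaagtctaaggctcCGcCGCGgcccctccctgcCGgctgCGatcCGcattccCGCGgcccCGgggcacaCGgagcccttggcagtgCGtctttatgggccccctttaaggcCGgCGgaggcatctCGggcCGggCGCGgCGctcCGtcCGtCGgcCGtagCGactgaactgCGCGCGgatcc
HOXD12: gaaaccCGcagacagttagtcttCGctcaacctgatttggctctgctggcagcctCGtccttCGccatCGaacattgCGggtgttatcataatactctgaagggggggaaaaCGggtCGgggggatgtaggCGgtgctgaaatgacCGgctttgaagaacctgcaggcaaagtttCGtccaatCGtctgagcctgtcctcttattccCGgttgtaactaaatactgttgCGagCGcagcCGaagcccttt
The silent HOXD12 thus also had a start rich in CG relative to the median of all promoters, and the presence of CG is a description of the sequence only.

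None of the 39 tested members passed an adjusted p under 0.05 (limma, adjusted by the Benjamini-Hochberg method over 16517 genes) in any of the 6 comparisons. For BRG1-wt against control this was 0 of 39 members where 0.26% of all genes were called, and for BRM-wt 0 where 0.291% were called. For BRG1-mut it was 0 of 39 with 0% of all genes called, and for BRM-mut 0 with 0.00605%. BRG1-wt against BRG1-mut gave 0 members and 0.109% of all genes, and BRM-wt against BRM-mut gave 0 and 0.272%. With shares of this size, less than 1 member would be called at the rate of all genes, so the count of 0 is near the background. The test was strict in these libraries: SMARCA4 itself, with a log2 difference of 4.13 in BRG1-mut, had an adjusted p of 0.716 (limma).

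At an unadjusted p under 0.05 by limma, 2 members passed in BRG1-mut against control, where 1.43% of all genes did, and 0 members passed in the other 5 comparisons. The background of these was 4.14% for BRG1-wt, 4.12% for BRM-wt, 0.563% for BRM-mut, 3.8% for BRG1-wt against BRG1-mut and 4.47% for BRM-wt against BRM-mut. The voom method of limma called 0 members and also placed 2 members under an unadjusted 0.05 in BRG1-mut and 0 elsewhere. The 2 genes by limma were HOXD13 and HOXC4, named here after their values were seen.

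After the GC trend was subtracted per library, 0 of 39 members again had an adjusted p under 0.05 (limma) in each comparison. All genes called were 1.13% for BRG1-wt, 0.00624% for BRG1-mut, 1.17% for BRM-wt, 0.00624% for BRM-mut, 0.717% for BRG1-wt against BRG1-mut and 1.05% for BRM-wt against BRM-mut, out of 16033 genes. SMARCA4 was called in this fit in both BRG1-wt and BRG1-mut, with log2 differences of 3.68 and 3.67. The members under an unadjusted 0.05 in this fit were 1 in BRG1-wt, where 8.1% of all genes were, 1 in BRG1-mut (2.96%), 2 in BRM-wt (8.21%) and 2 in BRM-mut (0.992%). Between active and inactive ATPase they were 0 for BRG1 (7.41% of all genes) and 2 for BRM (8.21%).

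The precision differed between the families, and a missing call does not show that a gene was the same in 2 groups. In the fit as given, the 95% interval of the difference from control lay within a 2-fold change in either direction for 22 of 39 members in BRG1-wt, 18 in BRG1-mut, 24 in BRM-wt and 23 in BRM-mut. Among the 11 Polycomb genes this held for 7 in each BRG1 group and 8 in each BRM group. Among the 28 tested HOX genes it held for 15 in BRG1-wt, 11 in BRG1-mut, 16 in BRM-wt and 15 in BRM-mut. After the GC trend was subtracted, this held for all 11 Polycomb genes in each of the 4 comparisons, and for 14 of the 28 tested HOX genes in BRG1-wt, 16 in BRG1-mut, and 15 in each BRM group. The half-width of the interval in the fit as given had a median of 0.46 on the log2 scale for the 22 members with a mean normalised count of at least 200 and of 0.92 for the other 17. By family, that median was 0.27 for PRC2, 0.73 for HOX and 0.86 for PRC1. After the GC trend was subtracted it was 0.183 for PRC2, 0.738 for HOX and 0.275 for PRC1. Which of HOX and PRC1 was measured more closely thus depended on the scaling.

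**Figure D2:**
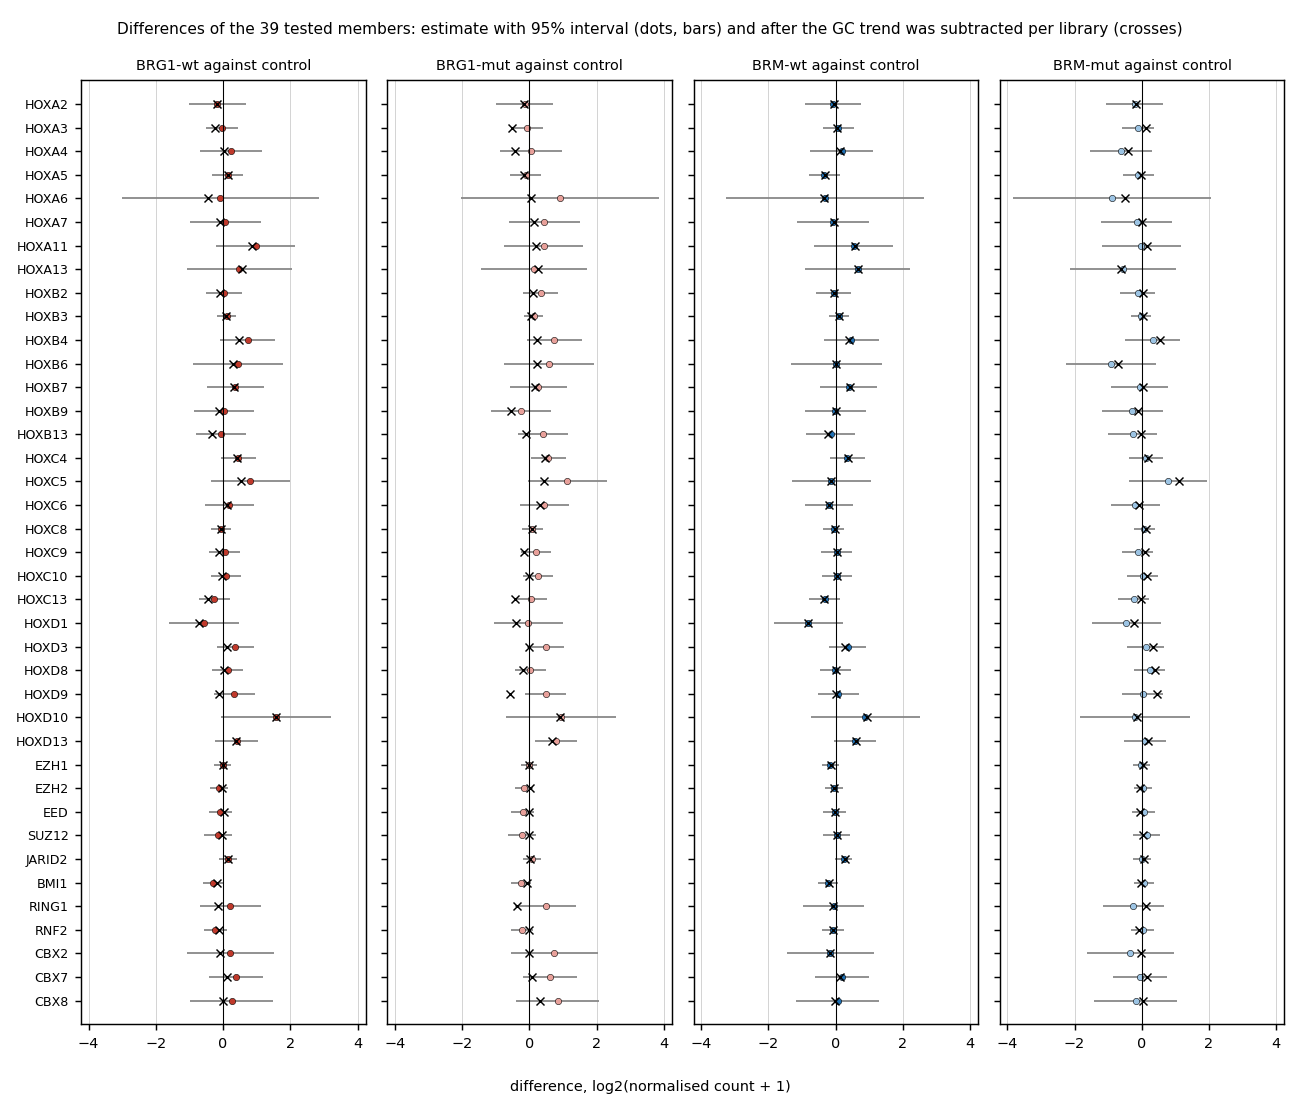
Difference of each of the 39 tested members from control on the scale of log2(normalised count + 1), in 4 comparisons. Dots with bars are the estimates with their 95% intervals and crosses are the estimates after the GC trend was subtracted from each library. No member was called, the HOX dots of BRG1-mut lie mostly to the right of 0 (23 of 28), and the crosses lie on both sides (15 above, 13 below).

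As a family, the HOX genes stood highest in BRG1-mut. In that comparison 23 of the 28 tested HOX genes were above control, with a median log2 difference of 0.30 where the median of all genes was -0.01. The median was 0.14 in BRG1-wt (21 above, all genes 0.01), 0.03 in BRM-wt (15 above, all genes -0.02) and -0.12 in BRM-mut (9 above, all genes -0.02). After the GC trend was subtracted the 4 medians were 0.05, 0.04, 0.02 and 0.02 in the same order.

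Between active and inactive ATPase, 9 of the 28 HOX genes were higher in BRG1-wt than in BRG1-mut, with a median log2 difference of -0.13. For BRM, 22 of 28 were higher in BRM-wt than in BRM-mut, with a median of 0.14. Both medians turned sign when the GC trend was subtracted, to 0.06 for BRG1 and -0.06 for BRM. No direction of the HOX family between active and inactive ATPase was therefore stable to the scaling.

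**Figure D3:**
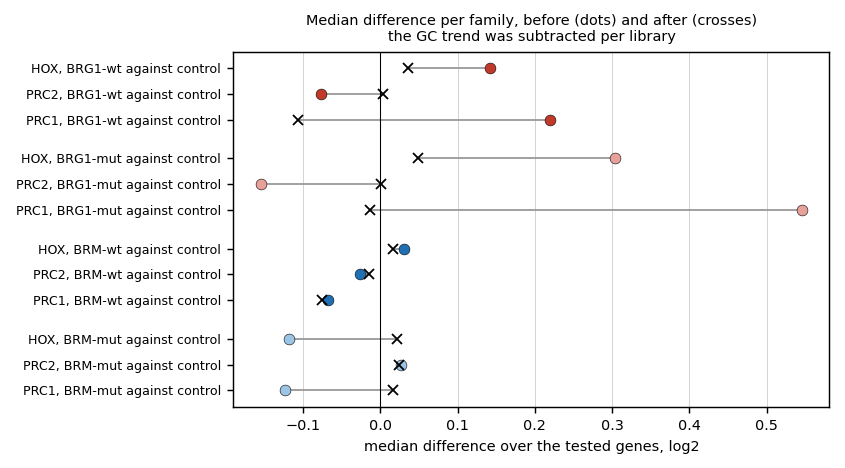
Median log2 difference from control over the tested genes of each family (28 HOX, 5 PRC2 and 6 PRC1 genes) in the 4 comparisons, as fitted (dots) and after the GC trend was subtracted from each library (crosses). The PRC1 median in BRG1-mut moved from 0.55 to -0.01 and the HOX median from 0.30 to 0.05.

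For the most active gene of each cluster the values of every library follow. HOXC10 had normalised counts of 798 and 753 in control, 801 and 859 in BRG1-wt, 1101 and 774 in BRG1-mut, 721 and 872 in BRM-wt, and 804 and 769 in BRM-mut. BRG1-mut a was above all other libraries. Both BRG1-wt libraries were just above both controls, and the other groups overlapped with control. The log2 difference was 0.10 in BRG1-wt (95% interval -0.35 to 0.55) and 0.25 in BRG1-mut (-0.20 to 0.70), with adjusted p of 0.988 and 0.716 by limma.

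HOXD8 was measured at 280 and 342 in control, 387 and 303 in BRG1-wt, 295 and 338 in BRG1-mut, 311 and 305 in BRM-wt, and 343 and 390 in BRM-mut. Both BRM-mut libraries were above both controls, and the other groups overlapped with control. The log2 difference in BRM-mut was 0.24 (-0.22 to 0.70, adjusted p of 0.99 by limma).

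HOXA5 had 122 and 115 in control, 129 and 132 in BRG1-wt, 114 and 106 in BRG1-mut, 97.7 and 89.8 in BRM-wt, and 103 and 118 in BRM-mut. Both BRG1-wt libraries were above the controls and both BRM-wt and both BRG1-mut libraries below them. The log2 differences were 0.14 (-0.32 to 0.60) in BRG1-wt and -0.34 (-0.80 to 0.12) in BRM-wt, and neither passed the test (adjusted p of 0.988 and 1 by limma).

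HOXB4 had the largest spread of these 4 genes. Its normalised counts were 403 and 230 in control, 496 and 517 in BRG1-wt, 597 and 440 in BRG1-mut, 315 and 563 in BRM-wt, and 398 and 366 in BRM-mut. Control b was the lowest library, and both libraries of BRG1-wt and of BRG1-mut were above both controls. The log2 difference was 0.73 in BRG1-wt (-0.08 to 1.55) and 0.75 in BRG1-mut (-0.07 to 1.56). After the GC trend was subtracted it was 0.47 (-0.02 to 0.96) in BRG1-wt, 0.24 in BRG1-mut, 0.40 in BRM-wt and 0.55 (0.07 to 1.04) in BRM-mut, with adjusted p of 0.647, 0.958, 0.788 and 1 by limma.

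Beyond these, the HOX genes below were chosen after their values were seen and are not all those with the largest differences. Large estimates were also those of HOXA13 in BRM-wt against BRM-mut (log2 difference 1.22), HOXA11 in BRG1-wt (0.97) and HOXB6 in BRM-mut (-0.92). None of these was called. HOXD13 had 30.1 and 37.3 in control, 43.7 and 45.4 in BRG1-wt, 54.9 and 62.9 in BRG1-mut, 57.3 and 44.3 in BRM-wt, and 32.8 and 39.2 in BRM-mut. Apart from BRM-mut, which overlapped with control, each group had both libraries above both controls. The log2 difference in BRG1-mut was 0.79 (0.17 to 1.42), with an unadjusted p of 0.0196 and an adjusted p of 0.716 (limma), and it was 0.69 after the GC trend was subtracted.

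HOXC4 had 280 and 284 in control, 400 and 371 in BRG1-wt, 514 and 338 in BRG1-mut, 335 and 389 in BRM-wt, and 293 and 322 in BRM-mut. Every library of the ATPase groups was above both controls. The log2 difference was largest in BRG1-mut with 0.56 (0.04 to 1.08, unadjusted p of 0.0376 and adjusted p of 0.716 by limma) and was 0.45 for BRG1-wt, 0.35 for BRM-wt and 0.12 for BRM-mut.

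The low gene HOXD10, which acts in lumbar motor neurons and limbs, had 6.79 and 6.22 in control, 16.9 and 26.9 in BRG1-wt, 14.9 and 12.1 in BRG1-mut, 26.0 and 6.15 in BRM-wt, and 9.505 and 3.01 in BRM-mut. Both BRG1-wt and both BRG1-mut libraries were above the controls, and the BRM groups overlapped with control. HOXD10 had the highest log2 difference of any member in BRG1-wt, 1.58 (-0.06 to 3.21), and the adjusted p was 0.988 (limma). After the GC trend was subtracted the difference was 1.58 (0.008 to 3.149), with an unadjusted p of 0.0491 and an adjusted p of 0.61 (limma). HOXD10 had 3 to 29 reads per library, and both intervals run from close to no change to a log2 difference above 3.

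The control libraries had 17.5 and 26.9 of HOXC5 and the BRG1-mut libraries 63.3 and 37.5, with a log2 difference of 1.13 (-0.04 to 2.31) that became 0.45 after the GC trend was subtracted. In BRG1-wt it went from 0.82 to 0.53, but in BRM-mut it rose from 0.775 to 1.09 (0.065 to 2.12). For BRM-wt against BRM-mut it went from -0.90 to -1.24 (-2.265 to -0.21), with an adjusted p of 0.463 after subtraction (limma). HOXD1 was lower than control in all 4 groups by estimate, from -0.03 in BRG1-mut to -0.81 (-1.84 to 0.22) in BRM-wt, and did not pass the test. HOXA6 differed most between libraries of 1 group, with 3.58 and 51.6 in BRM-wt and 25.9 and 3.01 in BRM-mut. In contrast, HOXB3 stayed between 867 and 1035 and HOXC8 between 757 and 889 over all 10 libraries, 1.19-fold and 1.17-fold from lowest to highest.

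All 5 PRC2 genes were active. Over the 10 libraries SUZ12 had a mean level of 1139 per kb, EZH1 350, EZH2 335, EED 255 and JARID2 177, where HOXB4 had 216, with a range that overlapped with that of EED. In BRG1-wt, 1 of the 5 was above control and the median log2 difference was -0.08, in BRG1-mut 1 of 5 with -0.16, in BRM-wt 2 of 5 with -0.03 and in BRM-mut 4 of 5 with 0.03. After the GC trend was subtracted the medians were 0.00, 0.00, -0.02 and 0.02.

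EZH2, the main methyltransferase of PRC2 in dividing cells (ENSG00000106462, chromosome 7 from 148504349 to 148581413), had normalised counts of 3546 and 3989 in control, 3635 and 3268 in BRG1-wt, 3369 and 3389 in BRG1-mut, 3818 and 3445 in BRM-wt, and 3686 and 3984 in BRM-mut. Both BRG1-mut libraries were below both controls, and the other groups overlapped with control. The log2 difference was -0.13 in BRG1-wt (-0.40 to 0.14) and -0.16 in BRG1-mut (-0.42 to 0.12). With the GC trend subtracted it was -0.04 (-0.23 to 0.14) and 0.01 (-0.18 to 0.19). EZH1, its paralogue, stayed between 2219 and 2602 in all libraries.

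SUZ12, a scaffold of PRC2 (ENSG00000178691, chromosome 17 from 30264026 to 30328057), had 6961 and 8276 in control, 7201 and 6579 in BRG1-wt, 6266 and 6873 in BRG1-mut, 9044 and 6618 in BRM-wt, and 7587 and 9210 in BRM-mut. Its 2 highest libraries were those with the most negative trend with GC content, BRM-wt a and BRM-mut b. The largest log2 difference from control was -0.21 in BRG1-mut (-0.62 to 0.20), and it was -0.01 (-0.15 to 0.12) after the GC trend was subtracted.

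EED, which binds trimethylated H3K27 (ENSG00000074266, chromosome 11 from 85912254 to 85989855), had 1733 and 1943 in control, 1747 and 1731 in BRG1-wt, 1686 and 1532 in BRG1-mut, 2028 and 1601 in BRM-wt, and 1838 and 1996 in BRM-mut. Both BRG1-mut libraries were below both controls and the other groups overlapped with control. The log2 difference in BRG1-mut was -0.19 (-0.53 to 0.15), and 0.00 (-0.22 to 0.22) with the GC trend subtracted.

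JARID2, which helps to bring PRC2 to its targets (ENSG00000008083, chromosome 6 from 15246300 to 15522273), had an estimate above control in all 4 groups. Its counts were 1021 and 1050 in control, 1171 and 1125 in BRG1-wt, 1061 and 1121 in BRG1-mut, 1191 and 1252 in BRM-wt, and 1060 and 1016 in BRM-mut. Both libraries of each group other than BRM-mut were above both controls, and BRM-mut overlapped with them. The log2 difference in BRM-wt was 0.24 (-0.03 to 0.50), and 0.27 (0.07 to 0.48) after the GC trend was subtracted, with an unadjusted p of 0.0146 and an adjusted p of 0.35 by limma. It had an exon GC content of 50.7%, near the middle of all genes, and moved little with the GC trend.

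The PRC1 genes fell into 2 kinds by their exon GC content, and these moved in opposite directions across the libraries. BMI1 and RNF2, both under 40% GC, were highest in libraries with a negative GC trend. CBX2, CBX7, CBX8 and RING1, all above 58% GC, each had their lowest level in BRM-wt a or BRM-mut b, whose GC trends were the most negative. The median log2 difference of the 6 tested PRC1 genes was 0.22 in BRG1-wt (4 above control), 0.55 in BRG1-mut (4 above), -0.07 in BRM-wt (2 above) and -0.12 in BRM-mut (2 above). It was -0.11, -0.01, -0.08 and 0.02 after the GC trend was subtracted.

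**Figure D4:**
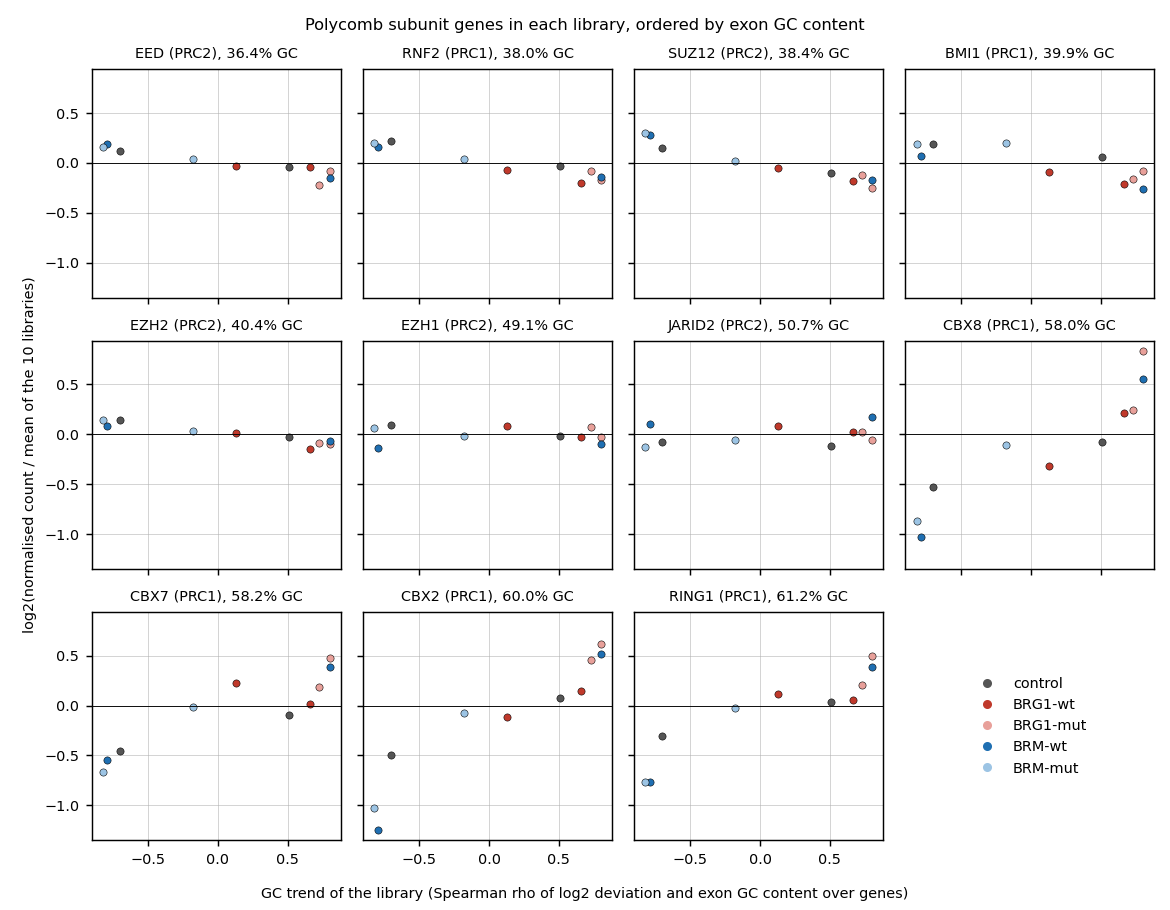
Normalised count of the 11 Polycomb subunit genes in each library, as log2 of the ratio to the mean of the 10 libraries, against the GC trend of that library. Panels are ordered by the exon GC content of the gene, and dots are coloured by group. The 5 genes with the lowest GC content fall slightly from left to right, EZH1 and JARID2 are flat, and CBX8, CBX7, CBX2 and RING1 rise, with CBX2 ranging from 530 to 1933 normalised counts.

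CBX2, which reads trimethylated H3K27 for PRC1 (ENSG00000173894, chromosome 17 from 77751947 to 77761782), had normalised counts of 1327 and 895 in control, 1162 and 1387 in BRG1-wt, 1933 and 1729 in BRG1-mut, 530 and 1796 in BRM-wt, and 1192 and 617 in BRM-mut. Its lowest libraries were BRM-wt a and BRM-mut b, with GC trends of -0.79 and -0.82, and the highest were BRG1-mut a and BRM-wt b, both at 0.80. Both extremes thus included a BRM-wt library. The log2 difference in BRG1-mut was 0.75 (-0.54 to 2.04), and after the GC trend was subtracted -0.01 (-0.23 to 0.22). CBX8 and CBX7, which read the same mark, had log2 differences in BRG1-mut of 0.84 and 0.61 as fitted and 0.33 and 0.10 with the trend subtracted.

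RING1, one of the ubiquitin ligases of PRC1 (ENSG00000204227, chromosome 6 from 33176277 to 33180499), had 963 and 763 in control, 1018 and 980 in BRG1-wt, 1328 and 1087 in BRG1-mut, 554 and 1230 in BRM-wt, and 927 and 552 in BRM-mut. Both BRG1-wt and both BRG1-mut libraries were above the controls, and the BRM libraries lay on both sides. The log2 difference in BRG1-mut was 0.49 (-0.42 to 1.40) as fitted and -0.38 (-0.89 to 0.13) after the GC trend was subtracted, so its sign depended on the scaling.

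RNF2, the other ligase (ENSG00000121481, chromosome 1 from 185014658 to 185071735), had 3173 and 3763 in control, 3085 and 2820 in BRG1-wt, 2887 and 3061 in BRG1-mut, 3615 and 2947 in BRM-wt, and 3341 and 3711 in BRM-mut. All 4 BRG1 libraries were below both controls. The log2 difference was -0.23 (-0.57 to 0.11) in BRG1-wt and -0.22 (-0.55 to 0.12) in BRG1-mut, and -0.12 (-0.28 to 0.03) and -0.02 (-0.18 to 0.14) with the GC trend subtracted.

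BMI1, the partner that activates these ligases (ENSG00000168283, chromosome 10 from 22610028 to 22620413), was the most active PRC1 gene at 1131 per kb, close to SUZ12. It had 5192 and 5681 in control, 4652 and 4279 in BRG1-wt, 4683 and 4457 in BRG1-mut, 5222 and 4148 in BRM-wt, and 5691 and 5688 in BRM-mut. All 4 BRG1 libraries were below both controls and both BRM-mut libraries were above them. The log2 difference was -0.28 in BRG1-wt (-0.58 to 0.02), -0.25 in BRG1-mut, -0.22 for BRM-wt and 0.07 for BRM-mut, with unadjusted p of 0.0619 and adjusted p of 0.988 for BRG1-wt by limma. With the GC trend subtracted it was -0.19 (-0.38 to 0.01) in BRG1-wt and -0.21 (-0.40 to -0.02) in BRM-wt, where the adjusted p was 0.542 (limma).

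The 8 splicing tables each set 1 ATPase library against 1 control library with the same number, and list 5191 events in all. The 49 members with an identifier were searched, which leaves out PCGF2, and 1 event lay in a member. It was an exon of EED listed in BRG1-wt replicate 1, from 85979498 to 85979603 on chromosome 11 of GRCh37 (plus strand), between exons from 85977125 to 85977258 and from 85988022 to 85988180. The PSI (percent spliced in, given as the fraction of EED transcripts that hold the exon) was 0.94 in the control and 0.99 in BRG1-wt, a change of 0.05. The event was not listed for BRG1-wt replicate 2 or for any other group. The depth behind both values is unknown, the change has no replicate check, and no HOX gene had a listed event.

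The exon has 106 bases and 34.9% GC, is in 8 annotated transcripts of EED and is coding in 6 of them. It is shown with 20 intron bases on each side (chr11:85979478-85979623, GRCh37, plus strand, 5′ to 3′), and the capitals mark the AG and the GT of the splice sites that flank it. Because 106 is not a multiple of 3, leaving the exon out shifts the reading frame.
EED exon: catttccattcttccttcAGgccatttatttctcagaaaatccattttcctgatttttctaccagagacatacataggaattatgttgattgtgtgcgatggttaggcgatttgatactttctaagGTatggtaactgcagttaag

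Other genes of these pathways were counted in the same fits. Of 23 tested genes of other Polycomb subunits, such as RBBP4, MTF2 and PCGF5, 0 were called in any of the 6 comparisons, and their median log2 difference from control lay between -0.04 and 0.00. Of 10 tested Trithorax and H3K27 demethylase genes, such as KMT2A and KDM6A, 0 were called, with medians between 0.00 and 0.02. Of 8 tested HOX cofactors of the PBX, MEIS and PKNOX families, 0 were called, with medians of 0.23 in BRG1-wt, 0.06 in BRG1-mut, 0.10 in BRM-wt and -0.02 in BRM-mut. Of 7 tested non-coding genes of the clusters, 0 were called. At an unadjusted p under 0.05 by limma, 1 cofactor and 1 non-coding gene passed in BRG1-mut and 0 genes of these lists in the other comparisons, and voom called 0 of them. After the GC trend was subtracted, 0 genes of these 4 lists were called as well.

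In the other lists, KDM6B, which removes methyl groups from H3K27 and was named after its values were seen, ranged from 232 to 1712 normalised counts, with log2 differences of 1.02 in BRG1-mut and -0.59 in BRM-mut, which were 0.08 and -0.19 after the GC trend was subtracted. PBX4, also named after its values were seen, had log2 differences of 1.10 in BRG1-wt, 1.21 in BRG1-mut, 1.09 in BRM-wt and 0.09 in BRM-mut. These became 0.83, 0.63, 1.07 and 0.37 in that order once the GC trend was subtracted. Neither gene was called in either fit. PBX4 had its smallest p in BRM-wt after the subtraction (unadjusted 0.00213 and adjusted 0.111 by limma). KDM6B had an unadjusted p of 0.337 there (limma). Among the non-coding genes, HOTAIRM1 at the anterior end of HOXA had 614 normalised counts on average, while HOTAIR in HOXC had 4.38 and HOTTIP at the posterior end of HOXA had 3.96.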

How the data were processed

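Reads had been mapped by the authors to GRCh37 with TopHat2 2.0.4, counted on genes with HTSeq 0.6.1, duplicates included, and compared with DESeq2. The base mean in the 4 deposited expression tables is a signal, averaged over 4 libraries after division of each by its size factor. PSI, from MISO, is deposited as a fraction, and events are listed past a Bayes factor limit. The authors' own comparisons (fold changes with their errors and p-values, Bayes factors, log2 changes of PSI) and a repeated expression table were not used.

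Because the base means have 15 digits and share the control libraries, whole reads of every library were recovered by lattice reduction for 100% of the 32119 identifiers above 0 (largest difference 2.04 units of the 15th digit, limit 3). Size factors recomputed from these reads differed by at most 0.000125 of their value. In simulated data 99.99% of genes were recovered and 4 were wrong. GENCODE v44, mapped to GRCh37, named 30847 identifiers.

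Normalised counts are reads divided by median-of-ratios size factors. Genes with a mean of at least 10 were fitted with limma 3.58.1 (R 4.3.3) on log2(normalised count + 1), all 10 libraries in 1 model, with a variance trend, two-sided tests and Benjamini-Hochberg adjustment. This scale understates changes of low genes. The fit was run on simulated counts without a GC trend between libraries. There 98% of genes changed by 1 on the log2 scale were called, with 14 unchanged genes. That share does not give the sensitivity in the real libraries, whose GC trends differed. The GC trend of a library was estimated over 50 bins of genes by exon GC content. Members, lists and tests were chosen with earlier results of these data known. By rule, the most active gene per kb of each cluster, EZH2, EED, SUZ12, JARID2, BMI1, RING1, RNF2, CBX2 and any called gene were named. The chi-square between libraries of a group was 22.8 to 196 per gene, so no library was treated as a repeat deposit of another. Alternatives were other pseudocounts, filters and scalings, voom, 4 libraries per fit, a stricter threshold, the GC trend subtracted, and each library left out.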

Additional observations from a re-analysis of the deposited data

Results flagged for a closer look

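Groups were set side by side as BRG1-wt with BRM-wt, BRG1-mut with BRM-mut, and active with inactive form of each ATPase. In 4 cases among these both libraries of one group were above both controls and both libraries of another were below them. How many of all genes have this pattern was not counted, so the 4 cases have no background to be set against. The groups share the control libraries. HOXA5 had a mean normalised count of 118.6 in control, 130.7 in BRG1-wt and 93.7 in BRM-wt, and this difference between BRG1-wt and BRM-wt was not tested. HOXA5 was also below control in BRG1-mut (109.8), and BRG1-wt against BRG1-mut gave a log2 difference of 0.25 with an adjusted p of 0.991 (limma). HOXB13 had 360.0 in control, 476.9 in BRG1-mut and 298.2 in BRM-mut, and the difference between these groups was not tested. BMI1 had 5436 in control, 4570 in BRG1-mut and 5689 in BRM-mut, which was not tested either. Its BRM-mut libraries, at 5690.9 and 5687.6, were barely above control b at 5681.1. HOXB13 has 57.7% and BMI1 39.9% exon GC, and the GC trends of the libraries were 0.80 and 0.73 in BRG1-mut and -0.18 and -0.82 in BRM-mut. The part of that trend in these cases was not tested.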

How the results depend on the processing

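The number of members called was 0 in every comparison fitted under the 30 other settings and at an adjusted p under 0.01. Settings that left out a library were fitted only for the comparisons that hold that library. Over all settings there were 4425 member tests with a smallest adjusted p of 0.147 (CBX2, BRG1-wt against BRG1-mut, log2 difference -0.49, limma on 4 libraries). With each library left out in turn the number of members called was 0 at the lowest and 0 at the highest. Of 1296 values of the 12 members named by rule under other settings, 1131 moved by less than 1 standard error and 165 by more, 107 of them with the GC trend subtracted. HOX genes detected were 28, 34 at a mean of at least 1, and 16 at 100. Without division by length, HOXB held 35.0% and HOXC 47.1% of the HOX sum. The EED event was absent (0 events) at a change in PSI of at least 0.2 and when both replicates were required (0 events).

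The count over all genes, the background of the members, moved far more. Leaving out libraries aside, it ranged from 2 (adjusted p under 0.01) to 181 (GC trend subtracted per library) in BRG1-wt, where 43 were called, and from 0 (4 libraries) to 188 (GC trend subtracted) in BRM-wt, where 48 were. It ranged from 0 to 1 in BRG1-mut and in BRM-mut, from 0 to 129 (4 libraries) in BRG1-wt against BRG1-mut (18 called) and from 0 to 168 (GC trend subtracted) in BRM-wt against BRM-mut (45 called). Without any 1 of its 4 libraries, BRG1-wt had 0 calls. BRM-wt had 16 without BRM-wt a, 87 without BRM-wt b, 7 without control a and 6 without control b. BRG1-wt against BRG1-mut had 2 without BRG1-mut b and 0 without each other library. BRM-wt against BRM-mut had 13 without BRM-wt a, 72 without BRM-wt b, 6 without BRM-mut a and 0 without BRM-mut b. The cause was not tested. No paired analysis was possible because the recovered libraries carry a group but no replicate number. With 2 libraries per group, changes of low HOX genes under about the half-widths given cannot be told from no change. Those half-widths belong to unadjusted intervals, so larger changes can also go uncalled. SMARCA4 in BRG1-mut, with a log2 difference of 4.13, had an adjusted p of 0.716 (limma).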
